A study of Mus musculus with 2 samples.

Results

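The 229569 distinct sequences (tags) of 31 to 44 nt are described here, out of 1858314 distinct tags of 18 to 44 nt in 2 mouse small RNA libraries. They were chosen by length alone and sorted into groups that share their first 18 bases. Both libraries came from the spleen of C57BL/6J mice: CD11c+ cells, taken up on magnetic beads, were split by a cell sorter into those with much Ia on their surface (Ia high) and those with little (Ia low), Ia being an MHC class II molecule. The labels call both populations dendritic cells and name no genotype, treatment or age. With 1 library per population there is no replicate check and no test between them. The labels give 18 to 30 nt as the RNA sequenced, so the longer tags lie outside the intended size range.

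The Ia high library held 16388303 reads, of which 267575 reads in 49411 tags were long. The Ia low library held 13739811 reads, of which 1960510 reads in 186623 tags were long. In both libraries were 6465 long tags, which is 13.1% of the long tags of Ia high and 3.46% of those of Ia low. The same share over tags of all lengths is not given here, so whether this overlap is particular to long tags was not tested. Levels are given as reads per 1000000 reads of the library (RPM), and a ratio is the level in Ia low over that in Ia high. PCR copies cannot be told from separate molecules here, since no molecular identifiers were used, so every interval covers counting error only. Leaving aside tags read once, a tag most often had 4 reads in Ia high and 9 in Ia low, and counts were divided by these numbers to widen the interval of each ratio. Intervals of shares were not widened in this way and are from undivided reads, so they are too narrow where reads are copies. A count of 0 allows up to 0.183 RPM in Ia high and 0.218 RPM in Ia low, from a floor of 3 counts.

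Small RNA libraries hold more than miRNAs. When a nuclease such as angiogenin cuts a tRNA in its anticodon loop, the 5′ piece runs from the first base of the tRNA to the loop, and such pieces are the best known of the tRNA-derived fragments. Ribosomal RNAs, the snoRNAs that guide their modification, mitochondrial tRNAs and mRNAs also leave fragments of this size. A tRNA gene carries an internal promoter element in its 5′ part, box A, and a second in its 3′ part, box B, and both can be looked for in the letters of a fragment.

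The sequences of the most abundant tag of the groups on which the results turn are printed here, with the letters of box A in capitals for the tRNA fragments. The names Gly and Lys rest on the known letters of these tRNAs, because the reference sequences used held only 13 of the 408 nuclear tRNA genes that RefSeq lists for GRCm38.p6.
tRNA-Val, group 1: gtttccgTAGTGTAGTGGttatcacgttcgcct
tRNA-Gly, group 5: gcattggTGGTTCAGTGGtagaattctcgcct
tRNA-Lys, group 9: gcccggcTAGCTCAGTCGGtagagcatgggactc

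The tRNA-Val tag was found whole at bases 1 to 33 of the gene n-TVcac9 (GRCm38, chromosome 13, 23446142 to 23446214, minus strand, 73 bases), and the 3 bases that follow it, at 34 to 36, are the anticodon, in capitals.
n-TVcac9, sense strand: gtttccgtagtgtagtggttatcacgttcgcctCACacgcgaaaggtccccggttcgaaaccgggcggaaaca

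Other groups that the results name are shown for comparison. Groups are numbered by their mean RPM over both libraries. Groups 2, 3 and 4 matched no annotated transcript used here. From the known letters of 28S ribosomal RNA, group 3 is its start, and groups 2 and 4 are like stretches further inside it. In the snoRNA tags the capitals mark TGATGA, the core of box C, where it is present, and the CTGA nearest the 3′ end of the tag. CTGA has the letters of box D, but only the Snord49a tag reaches the 3′ end of its gene. The tags of Snord45c and Snord88a are from the 5′ part, so their CTGA is an internal one.
group 2: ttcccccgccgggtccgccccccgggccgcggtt
group 3: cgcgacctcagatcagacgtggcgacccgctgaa
group 4: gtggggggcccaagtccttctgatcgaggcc
mt-Tm, group 18: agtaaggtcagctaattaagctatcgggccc
Snord45c, group 13: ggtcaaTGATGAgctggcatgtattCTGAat
Snord49a, group 26: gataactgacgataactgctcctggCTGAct
Snord88a, group 31: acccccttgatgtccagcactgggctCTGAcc

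Long reads made up 1.63% of the Ia high library (exact 95% interval, Clopper-Pearson, 1.63 to 1.64) and 14.3% of the Ia low library (14.3 to 14.3), a ratio of 8.74. The ratio was above 1 from 24 to 40 nt and was highest at 33 nt. At 28 nt the level was 43854 RPM in Ia high and 63866 RPM in Ia low, a ratio of 1.46 (1.44 to 1.47). At 31 nt the ratio was 5.76 (5.68 to 5.84), and at 33 nt, with 1582 RPM in Ia high and 37562 RPM in Ia low, it was 23.7 (23.1 to 24.4). Below 24 nt it was under 1, at 0.401 for 18 nt and 0.654 for 22 nt. Ia high fell off steeply past 30 nt, while Ia low lay between 34811 and 47870 RPM from 30 to 33 nt and fell to 3886 RPM at 35 nt.

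**Figure D1:**
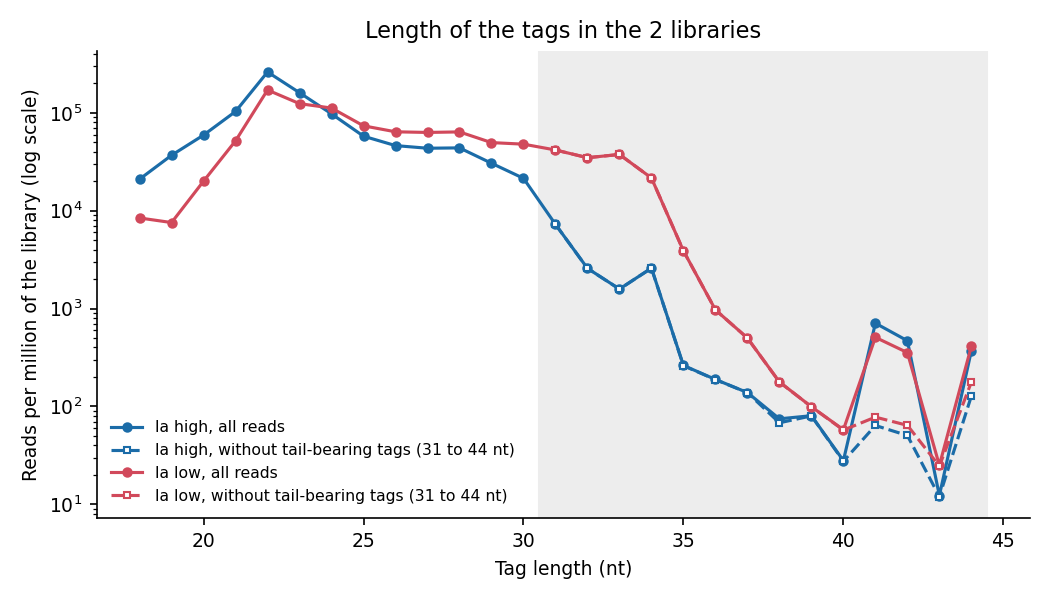
RPM (log scale) against tag length for Ia high (blue) and Ia low (red). The shaded part is 31 to 44 nt, and open squares leave out tags with the common 3′ tail. The lines part widely beyond 30 nt and come together again at 41, 42 and 44 nt, where most tags carry the tail.

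The difference did not rest on a few groups. Without the 10 most abundant groups, long reads made up 1.13% of Ia high and 9.90% of Ia low, a ratio of 8.80. How tightly the RNA was cut from the gel for each library and what each population of cells contained cannot be told apart with 1 library each. In RNA pooled from many cells, fewer cells of a type and less RNA per cell cannot be told apart either.

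Most tags of 41, 42 and 44 nt were another kind. A common run of letters, TGGAATTC, was in 84.8% of the distinct tags of 41 nt and 85.4% of those of 42 nt in Ia high, against 78.8% and 79.4% in Ia low. At 44 nt the run was in 63.1% in Ia high and 54.1% in Ia low, and at 31 nt in 0.196% and 0.0758%. Its letters are the first of the 3′ adaptor of Illumina small RNA kits. The part before the run was itself a tag of the same library for 98.2% of the tail-bearing reads in Ia high and 94.7% in Ia low, and it had a median length of 24 nt in each. The tail starts at the capitals in group 23, whose first 18 bases are those of mmu-miR-92a-3p.
group 23: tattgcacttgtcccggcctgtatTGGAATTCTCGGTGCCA

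Tail-bearing tags held 21738 reads in Ia high and 13760 in Ia low, or 0.133% and 0.100% of the library. Tags of 41 to 44 nt made up 0.156% of Ia high and 0.130% of Ia low, while those of 31 to 40 nt made up 1.48% and 14.1%. Of 37 tail-bearing groups with 50 reads or more, 25 started like a mature miRNA of RefSeq, and 35 had a ratio within 2-fold of the ratio of the same first 18 bases at 18 to 30 nt. Group 23 had 154 RPM in Ia high and 131 RPM in Ia low, a ratio of 0.850 (0.722 to 0.999), beside 0.912 (0.904 to 0.921) for its tags of 18 to 30 nt. The group that starts like mmu-miR-181a-5p had 88.6 RPM in Ia high and 23.1 RPM in Ia low, a ratio of 0.261 (0.179 to 0.370), beside 0.360 (0.356 to 0.363). The group that starts like mmu-miR-21a-5p had 47.9 and 53.4 RPM, a ratio of 1.12 (0.851 to 1.45), beside 1.36 (1.35 to 1.38). Over the 37 groups the median log2 ratio was -1.16, beside -0.45 for the same starts at 18 to 30 nt, so the tail-bearing tags stayed close to their inserts but somewhat lower.

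Annotated transcripts of GENCODE M21 or the tRNA genes at hand matched 18.1% of the long reads of Ia high and 35.2% of those of Ia low over the whole tag without mismatch. Matches to the opposite strand of a transcript, a measure of chance matching and of antisense RNA together, were 0.334% and 0.592%. Protein-coding genes took 14.1% of the long reads in Ia high and 16.1% in Ia low. Nuclear tRNA took 0.675% in Ia high and 11.7% in Ia low. Of its reads, 1716 of 1806 in Ia high and 229961 of 230354 in Ia low matched n-TVcac9. That was the only tRNA-Val gene among the 13 nuclear tRNA genes with a sequence here, so reads of other tRNA-Val genes with the same letters cannot be told from it. The snoRNAs and scaRNAs took 0.752% in Ia high and 3.46% in Ia low, and annotated rRNA took 0.432% and 1.04%. Mitochondrial tRNA took 0.187% and 0.354%.

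In RPM every annotated class was higher in Ia low, while as shares of the long reads misc RNA (0.801 times) and histone mRNA (0.368 times) were lower. The ratio was 152 (139 to 167) for tRNA, 40.2 (36.7 to 44.03) for snoRNA and scaRNA, 21.1 (18.7 to 23.98) for rRNA, and 16.5 (13.6 to 20.1) for mitochondrial tRNA. It was 9.98 (9.76 to 10.2) for protein-coding genes and 3.21 (1.94 to 5.35) for histone mRNA. As shares of the long reads, tRNA stood at 17.4 times and snoRNA at 4.59 times their part in Ia high, and protein-coding genes at 1.14 times. Unmatched reads without the tail were not identified further, except where named here.

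**Figure D2:**
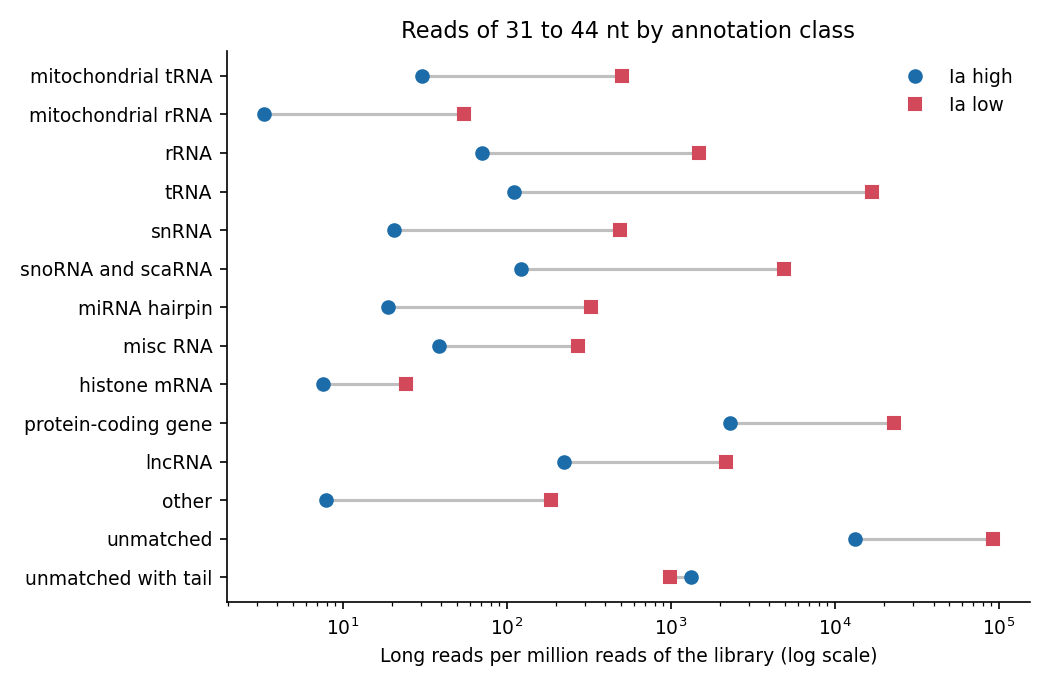
RPM of long reads (log scale) by annotation class, with a circle for Ia high and a square for Ia low. The widest gap is that of tRNA, at 110 against 16765 RPM, and the tail-bearing unmatched reads alone are lower in Ia low, at 1326 against 989 RPM.

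The long tags fell into 183015 groups, 7608 of them in both libraries (a count not given for shorter tags), and 1739 held 50 reads or more over both. A group was called when its ratio was at least 2-fold either way and its widened interval excluded 1. Of the 1739 groups, 1392 were called higher in Ia low (80.0%) and 25 lower (1.44%). Among groups of 18 to 30 nt the same rule called 4250 of 19500 higher (21.8%) and 2204 lower (11.3%). The median log2 ratio over the long groups was 4.34, with the 470 groups at 0 in Ia high and the 2 at 0 in Ia low set to 3 counts. Scaled to the long reads of each library instead, every log2 ratio is lower by 3.13, and then 282 groups were higher (16.2%) and 315 lower (18.1%). On that scale groups 2, 4, 8, 9, 10, 32, 68, 73 and 437 and the groups of Rmrp, Neat1 and mt-Rnr2, all above 1 per library, turn below 1. The minimum of 50 reads counts both libraries together, so a group can pass through Ia low alone. With a minimum of 20 reads, scaled to the library, 2641 of 5466 groups were higher (48.3%).

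Among the 1241 long groups whose first 18 bases also had 50 reads or more at 18 to 30 nt, the median log2 ratio was 4.28 for the long tags and 0.84 for the short ones. The long ratio was above the short one in 1087 of these groups. The same starts thus differed less between the libraries at 18 to 30 nt than in their longer forms. The median difference of the 2 log2 ratios was 2.92. Scaling to the long reads of each library alone shifts a long log2 ratio by -3.13, so most of this gap follows from the larger long share of Ia low. The minimum counts both libraries together, so a group can pass through Ia low alone. Whether the starts differ beyond that share was not tested.

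**Figure D3:**
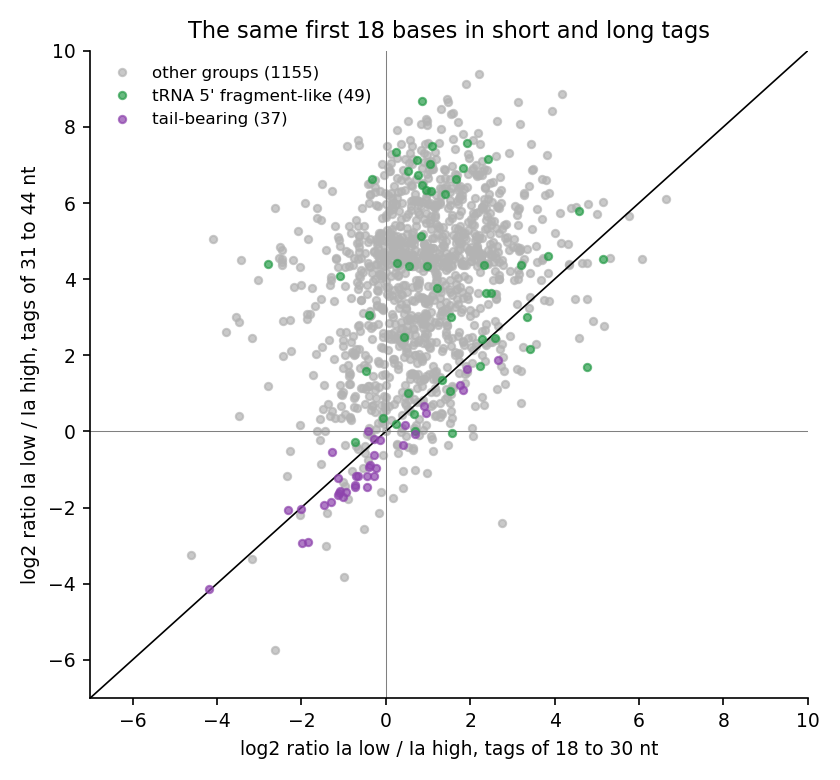
The log2 ratio of Ia low over Ia high for groups at 31 to 44 nt (vertical) against the same first 18 bases at 18 to 30 nt (horizontal), for 1241 groups with 50 reads or more in each range. Most groups lie above the line of equal ratios, at a median of 4.28 against 0.84, while 5 of the 37 tail-bearing groups do.

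By mean RPM over both libraries the tRNA fragments were led by tRNA-Val, which delivers valine to the ribosome. In Ia high alone tRNA-Lys was higher, at 239.5 RPM. The tRNA-Val group had 1609 long reads in Ia high and 241963 in Ia low, or 98.2 and 17610 RPM, a ratio of 179 (163 to 198). That was 0.601% of the long reads of Ia high and 12.3% of those of Ia low. At 18 to 30 nt the same first 18 bases had 6727 and 12028 reads, a ratio of only 2.13. The 33-nt tag that stops just before the anticodon made up 76.6% of the long reads of the group in Ia high (74.4 to 78.6) and 84.5% in Ia low (84.4 to 84.7). The same end point thus led in both libraries at amounts far apart. Tags that began at base 2 or 3 of n-TVcac9 also stopped at base 33. Those from base 3 had 233 and 2708 reads, a ratio of 13.9 (10.4 to 18.7), and those from base 2 had 36 and 637 reads, a ratio of 21.1 (10.5 to 48.05).

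The tRNA-Gly fragment had 487 reads in Ia high and 40745 in Ia low, or 29.7 and 2965 RPM, a ratio of 99.8 (83.3 to 120). Its short tags had 3647 and 9702 reads, a ratio of 3.17. Its 32-nt tag took 41.9% of the long reads of the group in Ia high (37.5 to 46.4) and 56.2% in Ia low (55.7 to 56.6), a smaller part than the main tag of tRNA-Val took of its group.

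Tags that begin inside these fragments and run on past their end showed the anticodon itself. The most abundant such tag is printed for tRNA-Gly and tRNA-Lys, with the 3 bases after the end of the fragment in capitals. They are GCC for tRNA-Gly, an anticodon of tRNAs for glycine. In tRNA-Lys they are TTA, so that the 34-nt fragment ends after the first base of the anticodon CTT.
tRNA-Gly, 33 nt: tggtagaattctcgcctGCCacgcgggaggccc
tRNA-Lys, 31 nt: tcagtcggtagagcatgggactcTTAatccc
The tRNA-Gly tag had 197 reads in Ia high and 113 in Ia low, and the tRNA-Lys tag 63 and 26, both higher in Ia high. The most abundant such tag of tRNA-Val had 0 and 5 reads.

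The tRNA-Lys fragment went a different way. It had 3925 reads in Ia high and 9850 in Ia low, or 239.5 and 717 RPM, a ratio of 2.99 (2.74 to 3.27), against 99.8 for tRNA-Gly and 179 for tRNA-Val. Its short tags had 513 and 311 reads, a ratio of 0.723. A second form of the same fragment differs at base 29, counted from its 5′ end (G29A), as known copies of this tRNA do. Of the 34-nt reads within 1 base of the printed tag, G29A made up 28 of 2770 in Ia high (1.01%, 0.673 to 1.46) and 2054 of 4595 in Ia low (44.7%, 43.3 to 46.2). The printed form itself was nearly equal, at 159 RPM in Ia high and 175 RPM in Ia low. In the 30-nt start of the fragment G29A was as common in one library as in the other, at 91 of 166 reads (54.8%, 46.9 to 62.5) in Ia high and 66 of 123 (53.7%, 44.4 to 62.7) in Ia low. Among the 34-nt reads, the excess in Ia low was thus in the G29A form. Which genes give the forms was not tested.

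**Figure D4:**
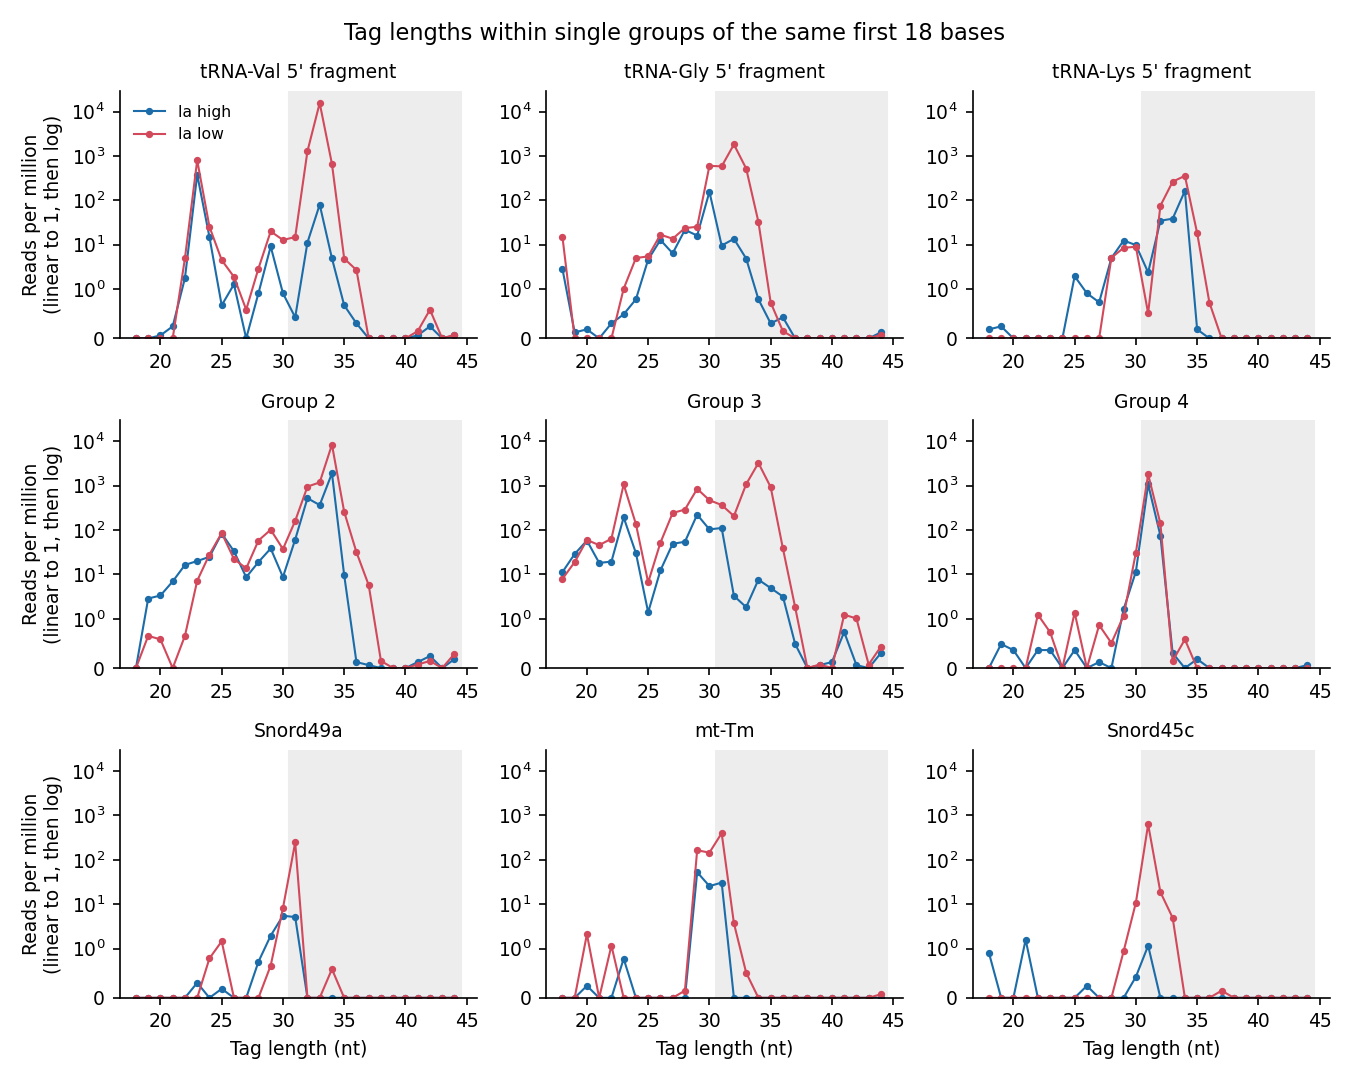
RPM (linear up to 1, then log) against tag length for 9 groups of the same first 18 bases, Ia high in blue and Ia low in red, with 31 to 44 nt shaded. In the panels of tRNA-Val and tRNA-Gly the lines lie closer at 28 and 29 nt than from 32 to 34 nt, while tRNA-Lys and group 2 had ratios of 2.99 and 3.85 over the shaded part as a whole.

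Over all 1087 groups whose most abundant tag held box A starting at base 7 to 9 and matched no annotated small RNA other than tRNA, the fragments took 5.46% of the long reads in Ia high (5.37 to 5.55) and 18.5% in Ia low (18.5 to 18.6). Without the tRNA-Val group the shares were 4.86% and 6.20%. Counted as distinct tags the direction turned, with 1.86% of the long tags of Ia high and 1.37% of those of Ia low. Box A in that place was in 1.36% of all long tags and in 30 of 48561 long tags from protein-coding genes, or 0.0618%. Of 105 such groups with 50 reads or more, 74 were called higher in Ia low, 1 lower and 30 neither, with a median log2 ratio of 3.74. This is below the 4.34 of all long groups, and 80.0% of all long groups were called higher, so that the list as a whole was no higher than the background. Many of its groups were not identified, and whether all of them come from mouse was not tested, so the shares cover every group with these letters. Forms of 1 fragment that differ within the first 18 bases, such as tRNA-Val from base 2, count as separate groups of the list. Within the list, 49 groups also had 50 short reads or more, and the long ratio was above the short one in 38. Over all long groups that was so in 1087 of 1241. Lengths of 32 to 34 nt held 24.4%, 32.2% and 25.5% of the reads of the list in Ia high and 19.3%, 67.9% and 5.79% in Ia low.

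Other members of the list, chosen after their values were seen, showed the range. Groups 69, 85 and 32 matched no transcript used here, so their likeness to known tRNAs rests on letters not printed here and was not tested. Group 69, with letters like those of tRNA-Asp, had 4 reads in Ia high and 1368 in Ia low, a ratio of 408 (72.1 to 16217). Group 85, with letters like those of tRNA-Cys, had 11 and 1197 reads, a ratio of 130 (41.7 to 703). Group 32, with letters like those of the initiator tRNA-Met, had 380 and 2631 reads, a ratio of 8.26 (6.53 to 10.5). Groups 47 and 73, which were not identified, had 1325 and 919 reads and 798 and 677 reads, with ratios of 0.827 (0.656 to 1.04) and 1.01 (0.766 to 1.33).

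Groups with box B, spelled GTTCNANNC and searched on the sense strand, as the 3′ part of a tRNA would show it, were few. They held 0.740% of the long reads in Ia high and 0.405% in Ia low, or 121 and 578 RPM. Box B was in 0.976% of all long tags and in 0.280% of those from protein-coding genes. Of 10 groups with 50 reads or more, 7 were called higher and none lower, against 80.0% of all long groups called higher. The most abundant, group 312, had 232 reads in Ia high and 102 in Ia low, a ratio of 0.524 (0.251 to 1.001), while groups 437 and 604 had 28 and 172 reads and 10 and 132 reads. Groups with box B thus held less than groups with box A in each library, at 121 against 891 RPM in Ia high and 578 against 26452 RPM in Ia low.

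The tRNA fragments also carried base changes at fixed places. In tRNA-Gly, counted from the 5′ end, G6T made up 38 of 309 reads in Ia high (12.3%, 8.85 to 16.5) and 4195 of 36393 in Ia low (11.5%, 11.2 to 11.9). A lost G at base 6 or 7 made up 10.7% (7.47 to 14.7) in Ia high and 14.2% in Ia low. The same changes stood in the 30-nt start of this fragment, where the lost G was at 15.4% and 16.3% and G6T at 10.2% in each library. In tRNA-Val the changes were fewer, and base 26 led. There, G26A made up 1.99% (1.32 to 2.89) in Ia high and 1.46% (1.41 to 1.52) in Ia low. The sum of all substitutions at base 26 was 3.47% and 2.53%, against a median over the bases of 0.0739% and 0.0381%. Base 26 of many tRNAs is known to carry a dimethylated guanosine. Whether the changes come from modified bases, from other gene copies or from sequencing was not tested.

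**Figure D5:**
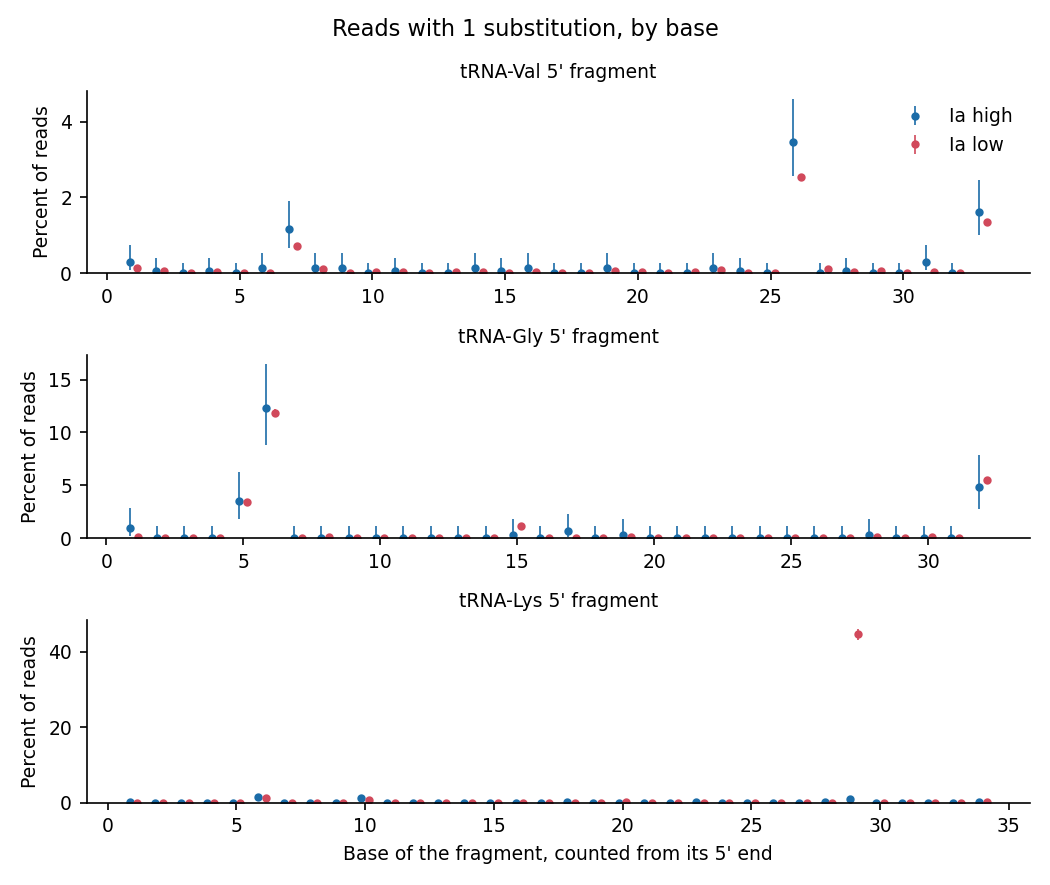
Percent of reads with 1 substitution at each base of 3 tRNA fragments, with exact 95% intervals, Ia high in blue and Ia low in red. Base 6 stands out in tRNA-Gly, at 12.3% and 11.8%, base 26 in tRNA-Val, at 3.47% and 2.53%, and base 29 in tRNA-Lys in Ia low, at 44.7% beside 1.05% in Ia high.

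Mitochondrial tRNA gave 5′ pieces as well. Reads that started within 3 bases of the 5′ end made up 95.8% of the long mitochondrial tRNA reads in Ia high and 93.7% in Ia low. The group of mt-Tm, the mitochondrial tRNA for methionine (chromosome M, 3845 to 3913), had 502 long reads in Ia high and 5540 in Ia low, a ratio of 13.2 (10.8 to 16.1), beside 3.95 for its short tags. The tag of bases 1 to 31 made up 95.0% and 98.0% of them. A group also holds tags that share its first 18 bases but match no transcript exactly, and exact matches to mt-Tm had 478 and 5484 reads. The group of mt-Ts2 had 18 and 787 long reads, a ratio of 52.2 (20.6 to 178), and exact matches to mt-Ts2 had 3 and 735, while the group's short tags had 9268 and 8612 reads, a ratio of 1.11. The group of mt-Ts1 had 18 and 133 long reads, a ratio of 8.81 (2.92 to 33.4). All 8 mitochondrial tRNA groups with 50 reads or more were called higher in Ia low, against 80.0% of all long groups.

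Groups with the letters of 28S rRNA were the most abundant of Ia high. Group 2 had 47068 reads in Ia high and 151821 in Ia low, or 2872 and 11050 RPM, a ratio of 3.85 (3.76 to 3.94). It took 17.6% of the long reads of Ia high and 7.74% of those of Ia low. Group 4 had 18854 and 26735 reads, a ratio of 1.69 (1.61 to 1.77) that did not reach 2-fold. Group 3, the start of 28S rRNA, had 2201 and 80973 reads, or 134 and 5893 RPM, a ratio of 43.9 (40.3 to 47.9). Its 34-nt tag made up 5.68% of its long reads in Ia high and 54.6% in Ia low. At 18 to 30 nt group 3 had 13179 and 45661 reads, a ratio of 4.13. The 3 groups thus differed between the libraries by unlike amounts. A further 2 of the 10 most abundant groups were near copies: group 8 starts as group 4 does without its base 2, with 6080 and 8385 reads and a ratio of 1.64 (1.51 to 1.79), and group 10 is group 2 without its first base, with 1874 and 8721 reads and a ratio of 5.55 (4.97 to 6.21).

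The mitochondrial rRNA mt-Rnr2 had 49 and 638 long reads over the whole gene, a ratio of 15.5 (8.40 to 31.2). The group from its first base had 39 and 167 long reads, against 26510 and 28662 short reads. A piece from its base 1254 had 8 and 53 long reads, a ratio of 7.90 (1.40 to 80.3).

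The snoRNAs guide methylation and pseudouridylation of ribosomal RNA, and those with 50 long reads or more were nearly all higher in Ia low. Of 141 groups, 139 were called higher and none lower, against 80.0% of all long groups called higher. Of 85 single snoRNA and scaRNA genes with 50 long reads or more all 85 were called higher, with no background of genes beside them. The minimum counts both libraries together, so groups can pass through Ia low alone, and 59 of the 141 had 0 reads in Ia high. Snord45c (chromosome 3, 153912125 to 153912204, minus strand) had 19 reads in Ia high and 8970 in Ia low, or 1.16 and 653 RPM, a ratio of 563 (236 to 1805). Its tag of bases 1 to 31 made up all 19 reads in Ia high and 95.1% in Ia low, and its short tags had 52 and 162 reads, a ratio of 3.72. The same piece with 1 more base before it matched its host gene Rabggtb and was counted with protein-coding genes, at 0 reads in Ia high and 1327 in Ia low. With the 0 set to 3 counts the ratio of this piece was 528, and its interval began at 106.

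Snord49a gave its 3′ end, bases 42 to 72 (chromosome 11, 62603450 to 62603521). It had 84 reads in Ia high and 3396 in Ia low, a ratio of 48.2 (31.1 to 78.8), beside 1.28 for its short tags. Snord88a (chromosome 7, 44250135 to 44250224) gave bases 3 to 34, at 43 and 3142 reads, a ratio of 87.2 (47.8 to 178), beside 1.53. The whole Snord88a gene had 667 and 5268 long reads, a lower ratio of 9.42 (7.92 to 11.3). Over the class, 18.0% of long reads in Ia high and 37.9% in Ia low started within 3 bases of a 5′ end, and 14.1% and 25.9% ended within 3 bases of a 3′ end. Tags at an end of a snoRNA thus took a larger part of the long snoRNA reads in Ia low. These shares are by reads, so single genes weigh on them. Exact matches to Snord45c, whose main tag starts at base 1, were 19 of 2013 class reads in Ia high and 8969 of 67768 in Ia low. Snord88a, mostly other pieces than bases 3 to 34 in Ia high, had 667 and 5268. Whether the difference holds for the other snoRNAs was not tested.

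Other small RNAs moved by differing amounts. The largest group of Rmrp, the RNA of the RNase MRP that GENCODE lists with lncRNAs (chromosome 4, 43492783 to 43493063), had 1727 reads in Ia high and 2141 in Ia low, a ratio of 1.48 (1.26 to 1.74). The largest group of Gm42418, a lncRNA gene known to overlap ribosomal RNA sequence, had 81 and 1530 reads, a ratio of 22.5 (14.2 to 37.7), and that of the nuclear lncRNA Neat1 had 137 and 583, a ratio of 5.08 (3.31 to 7.92). For Rny1, a Y RNA, the largest group had 38 and 297 reads, a ratio of 9.32 (4.43 to 21.7), and the whole gene 44 and 636, a ratio of 17.2 (9.07 to 36.1). For the vault RNA Vaultrc5 the largest group had 230 and 149 reads, a ratio of 0.773 (0.418 to 1.35), and the whole gene 253 and 226, a ratio of 1.07 (0.643 to 1.72), and neither was called. The predicted misc RNA Gm25574 had 2 and 302 reads in its largest group and 8 and 333 over the gene. Among the snRNAs, a piece shared by 17 genes from Gm22973 on had 66 and 1193 reads, a ratio of 21.6 (12.9 to 38.5), its 1-base longer form 5 and 362, a ratio of 86.4 (17.0 to 1870), and a piece of Rnu12, of the minor spliceosome, 1 and 321 reads. The whole Rnu12 gene had 26 and 782 reads, a ratio of 35.9 (16.3 to 95.8). The miRNA hairpin class was led by predicted genes that share 1 sequence, such as Gm22398 and 13 others, with 62 and 811 reads and a ratio of 15.6 (9.04 to 28.7). The next groups of that class matched Gm22398 or Gm22174 with 17 others, at 8 and 702 and at 3 and 478 reads.

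The extremes among the groups of 200 reads or more were chosen by their ratios, and are given as values. The 5 highest were group 165 (1 and 565 reads), Snord45c, the Rabggtb piece, group 55 (4 and 1722 reads) and group 63 (4 and 1552 reads). The 5 lowest were group 321 (307 and 34 reads, 7.57-fold lower), group 130 (718 and 113 reads, 5.33-fold lower), group 131 (691 and 130 reads, 4.46-fold lower), the mmu-miR-181a-5p group 64 (1452 and 318 reads, 3.83-fold lower) and the mmu-miR-191-5p group 186 (459 and 107 reads, 3.60-fold lower). Of these 5, groups 64, 186 and 321 carry the tail.

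Protein-coding genes gave 8323 distinct long fragments in Ia high and 38768 in Ia low that matched 1 gene only, over 7502 genes. Scaled to these totals, 26 of the 1221 genes with 10 fragments or more were called higher in Ia low (2.13%) and 62 lower (5.08%). Cd74, the invariant chain that escorts MHC class II molecules, had the most, with 80 fragments in Ia high and 145 in Ia low, a ratio of 0.389 (0.294 to 0.518). Flna, the actin cross-linker filamin A, had 8 and 143, a ratio of 3.84 (1.90 to 9.06). The other 8 of the 10 genes with the most fragments, Lars2, Dusp1, Zfp36, Nr4a1, Psap, Fth1, Fos and Myh9, were not called, with ratios from 0.631 for Zfp36 to 1.38 for Myh9. By reads, the largest single groups were a Lars2 piece with 65 and 3468 reads, a second Lars2 piece with 56 and 2321, and an Actg1 piece with 20 and 2384. Lars2 is known to hold a stretch like 28S rRNA, and reads of these RNAs cannot be told apart here.

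Markers of the cell types that the sort could hold were counted on the same scale. The MHC class II list, 5 of 5 genes with fragments, had 192 fragments in Ia high and 315 in Ia low, or 231 and 81.3 per 10000 mRNA fragments, in the direction of the sort. The list for monocytes with little Ly6C, 7 of 7 genes, had 64 and 487, or 76.9 and 126 per 10000. In it Ace, an angiotensin-converting enzyme, had 5 fragments in Ia high and 95 in Ia low, and Cx3cr1, a chemokine receptor, 0 and 20. Its member with the most fragments, the nuclear receptor Nr4a1, was not called, at 41 and 142 and a ratio of 0.744 (0.522 to 1.08). The list for the cDC1 type of dendritic cell, 5 of 6 genes, had 49 and 51, or 58.9 and 13.2 per 10000. Most of these fragments were of Wdfy4, at 28 in Ia high and 29 in Ia low, and Irf8, at 14 and 22. The other members were near 0: Xcr1, the receptor that defines the type, had 4 and 0, Cadm1 2 and 0, Clec9a 1 and 0, and Batf3 0 and 0. The B cell list had 2 and 1 fragments, or 2.40 and 0.258 per 10000, and the T cell list 3 and 0, or 3.60 and 0. The plasma cell list had 3 and 18, or 3.60 and 4.64 per 10000, and the neutrophil list 0 and 17, or 0 and 4.39. The erythroid and platelet lists had none in either library.

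Immunoglobulin constant genes, products of plasma cells and B cells, were listed with the other classes. Igha had 24 long reads in Ia high and 912 in Ia low, and Igkc had 9 and 439. Their single largest groups were at 6 and 188 reads for Igha, a ratio of 37.4 (7.76 to 549), and at 0 and 155 for Igkc. With the 0 set to 3 counts the ratio of the Igkc group was 61.6, and its interval began at 11.2. The plasma cell markers beside them were Jchain at 2 and 5 fragments, Xbp1 at 0 and 9 and Prdm1 at 1 and 4, together 3.60 and 4.64 per 10000 mRNA fragments, and their part in this result was not tested.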

How the data were processed

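Per the labels' protocols, RNA under 30 bases was purified on a gel, ligated to adaptors, amplified and sequenced on a Solexa instrument. The deposited files hold whole-number counts of reads per distinct sequence with its length, unscaled. How the authors trimmed and filtered the reads, and any genome build, is not stated in the labels or files. Tags of 31 to 44 nt were kept and grouped by their first 18 bases. Whole tags were matched without mismatch, sense strand, to 141767 transcripts of GENCODE M21 (GRCm38) and to the 13 RefSeq tRNA genes (GRCm38.p6, with CCA added) whose letters lay inside a reference sequence at hand. No genome was given, so matching to the genome was not run. A tag in several classes (1.99% of long reads in Ia high, 4.07% in Ia low) went to the first of mitochondrial tRNA, mitochondrial rRNA, rRNA, tRNA, snRNA, snoRNA, miRNA hairpin, misc RNA, histone mRNA, protein-coding, lncRNA and other.

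Counts were scaled to 1000000 reads of the library. Shares have exact 95% binomial (Clopper-Pearson) intervals and ratios have conditional exact intervals, and a count of 0 was set to 3 in a ratio. With 1 library per group no test was run. The named groups are the 10 most abundant, the 5 highest and 5 lowest ratios among called groups of 200 reads or more, and up to 3 of the most abundant of each class, of the tRNA-like sets and of the unmatched. Of the 10 most abundant groups, 2 are not reported here. For mRNA, the 10 genes with the most distinct fragments are named. The members, rules and lists were chosen with earlier results of these data known. The tail was found as the run of 8 bases in most tags of 41, 42 and 44 nt, and leaving out tail-bearing tags was an alternative chosen after seeing the data. Other alternatives changed scaling, lengths, prefix, minimum, fold, interval and matching. Ratios and calls were tested on simulated counts. Python 3.11.15, pandas 2.3.3, NumPy 2.4.6 and SciPy 1.17.1 were used.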

Additional observations from a re-analysis of the deposited data

How the results depend on the processing

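Each value here is from 1 library per population, so no library could be left out. No paired analysis was possible because each group has 1 library. Of 1739 groups, the counts of 1392 higher and 25 lower in Ia low became 282 and 315 per long read, and 775 and 4 when distinct tags were counted. With a minimum of 200 reads they were 364 and 14 of 442 groups (82.4% and 3.17%). With a minimum of 20 reads 2641 of 5466 groups were higher (48.3%), and at 32 to 44 nt 900 of 1124 (80.1%). Groups lower in Ia low were 15 of 1739 per read of 18 to 30 nt and 54 of 1739 with intervals from undivided read counts. They were 15 of 1691 without tail-bearing tags, a setting chosen after seeing the data. Long reads as a share of Ia high and Ia low were 4.17% and 24.6% as distinct tags, 0.908% and 10.1% at 32 to 44 nt, 1.60% and 14.2% at 31 to 43 nt, 1.503% and 14.1% without tags of 1 read, and 1.5001% and 14.2% without tail-bearing tags. Annotated shares of long reads were 20.6% and 39.7% with 1 mismatch, 20.1% and 39.6% with up to 3 bases trimmed, and 19.5% and 24.9% as distinct tags. Fragments with box A took 7.12% and 19.4% with box A anywhere, 1.86% and 1.37% as distinct tags, and 6.13% and 18.8% at 31 to 36 nt; as distinct tags their excess in Ia low turned. Scaling per long read turned these log2 ratios below 0: group 2 to -1.18, group 4 to -2.37, group 8 to -2.41, group 9 to -1.55, group 10 to -0.65, group 32 to -0.08, group 73 to -3.11, Rmrp to -2.56, group 68 to -2.97, Neat1 to -0.78, mt-Rnr2 to -0.77 and -0.15, and group 437 to -0.25. Ratios were given for the 1739 of 183015 groups with 50 reads or more. Matching to a genome was planned and not run.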
